A study of Mus musculus with 6 samples.

Results

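The genes described here are Fas and 9 further target genes of the transcription factor p53: Mdm2, Ccng1, Bax, Bbc3, Trp53inp1, Sesn2, Zmat3, Phlda3 and Plk2. They were chosen by symbol, and all 10 were found among the 30631 genes listed for each library. The RNA came from mouse embryonic stem cells made to differentiate into cells resembling the heart's pacemaker, the sinoatrial node. Per the labels, a feeder layer of embryonic fibroblasts supported the stem cells, hanging drops were used to reach stage 7+1 days, and the cells were sorted for the surface protein CD166. The 6 libraries carry 2 genotype labels, 3 wild type (WT) and 3 with both copies of Shox2 disrupted (Shox2-/-), with no other allele or treatment named. How the Shox2 allele was made, and which part of the gene it lacks, is not given in the sources used here. All 3 titles labelled Shox2-/- begin with J2, while the titles labelled WT have other prefixes. What the prefixes stand for is not given in the sources used here. Genotype cannot be told apart from whatever they mark, such as a cell clone.

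The libraries held 13504683 to 34650564 gene-assigned reads. Shox2, the targeted gene, was at 31.4 to 89.6 normalized counts (reads scaled by 1 factor per library) in the libraries labelled WT and at 200.7 to 548 in those labelled Shox2-/-. The targeted gene was thus higher under the Shox2-/- label, and each group below is named by its label. Libraries 1 and 2 labelled WT lay close together, with a median absolute difference of 0.09 on the log2 scale over 17034 tested genes. Both their titles carry Diff9, as does that of library 3 labelled Shox2-/-. Library 3 labelled WT carries a Diff number shared with no other library, as do libraries 1 and 2 labelled Shox2-/-. What the Diff number stands for is not given in the sources used here. Separate cultures are not named for any group. The p-values therefore reflect only how far these particular samples spread, and that spread may be technical. All 10 cardiomyocyte markers and all 9 sinoatrial node markers examined were detected. Nkx2-5, a core cardiac transcription factor, was low at 18.8 to 64.4. The sinoatrial node marker Vsnl1 was low too, at 5.5 to 52.1 under the WT label and 4.44 to 10.4 under the Shox2-/- label.

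The p53 protein, encoded by Trp53, is held at a low level by the ubiquitin ligase Mdm2 and accumulates when DNA is damaged or growth signals are abnormal. It then binds DNA through pairs of short half-sites and raises the transcription of genes for cell cycle arrest, DNA repair, metabolic control and cell death. Some of these targets feed back on p53 itself, foremost Mdm2. Fas is a death receptor at the cell surface: when Fas ligand binds it, the adaptor Fadd and the protease caspase 8 assemble on its cytoplasmic part. Ready p53-dependent death has been reported for some pluripotent cells and their early descendants, and a comparatively low sensitivity to Fas for cardiomyocytes.

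The upstream sequences are shown because binding to such half-sites defines a direct p53 target. RefSeq promoter windows of GRCm38.p6, from 250 bases before to 50 after each start, were found for 8 of the 10 genes (all but Trp53inp1 and Zmat3), with several starts for Bbc3. The p53 half-site consensus, 10 bases long and its own reverse complement, was searched exactly and as pairs with 0 to 13 bases between the half-sites. In the lines below, capitals mark the matching half-sites or the closest pair.

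Ccng1, chr11:40755452-40755491, minus strand: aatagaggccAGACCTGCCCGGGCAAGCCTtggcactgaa

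Bax, chr7:45467080-45467120, minus strand: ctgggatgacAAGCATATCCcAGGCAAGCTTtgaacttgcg

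Mdm2, chr10:117710925-117710954, minus strand: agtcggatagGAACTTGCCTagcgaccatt

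Bbc3, chr7:16309476-16309515, plus strand: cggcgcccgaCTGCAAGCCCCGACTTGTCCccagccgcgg

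Fas, chr19:34290409-34290658, plus strand: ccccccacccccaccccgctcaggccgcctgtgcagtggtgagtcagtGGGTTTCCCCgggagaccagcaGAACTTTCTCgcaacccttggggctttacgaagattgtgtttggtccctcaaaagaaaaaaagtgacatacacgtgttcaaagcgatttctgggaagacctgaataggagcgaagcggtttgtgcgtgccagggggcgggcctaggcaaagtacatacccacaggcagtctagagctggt

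Ccng1 and Bax each held a pair with 1 mismatch, 195 to 176 and 212 to 192 bases before the start. Pairs with up to 1 mismatch were present in 1.09% of all 32851 windows. Mdm2 held a single exact half-site 186 to 177 bases before the start, which 8.36% of windows held. The closest pairs in Bbc3 and in Fas had 3 mismatches, and 45.1% of windows held a pair at least as close. The 250 bases printed for Fas contained no exact half-site, and neither did the windows of Bbc3, Phlda3, Sesn2 and Plk2. These matches describe the letters of the windows. Sites elsewhere in a gene, such as those known in the first intron of Mdm2, lie outside them.

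Fas was the gene of the 10 whose levels separated the labels. Its normalized counts were 383, 427 and 444 in libraries 1, 2 and 3 labelled WT and 249, 172 and 159 in libraries 1, 2 and 3 labelled Shox2-/-. Every library labelled Shox2-/- lay below every library labelled WT, and the gap between the groups was wider than the range within either. The mean was 418 ± 31.1 (SD, n = 3) under the WT label. Under the Shox2-/- label it was 193 ± 49.0 (SD, n = 3), which is 2.16-fold lower. Between 144 and 655 reads stood behind each value. On the log2(value + 1) scale the change was -1.14 (SE 0.20, 95% interval -1.61 to -0.67).

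In limma with Benjamini-Hochberg adjustment over all 17034 tested genes, Fas did not pass (adjusted p = 0.182). No gene of the series did, so 0.0% were called, and 0 of the 10 genes. At an unadjusted p under 0.05, 1 of the 10 passed, Fas, where 14.2% of all tested genes did. The read-based voom fit with sample quality weights called 1.78% of genes and 0.781% as lower. There Fas passed with an adjusted p of 0.0192 and none of the other 9 did. In voom without those weights no gene passed, and Fas had an adjusted p of 0.163. With libraries 1 and 2 labelled WT as 1 sample, the limma adjusted p of Fas was 0.505. The direction of the Fas change was the same in all 16 alternatives, with adjusted p between 0.0192 and 0.514. Separation of the groups with the libraries labelled Shox2-/- lower was found for 1 of the 10 genes and for 10.8% of all tested genes. Separation in either direction was found for 23.6% of all genes. Fas also met the joint rule of no overlap, unadjusted p under 0.05 and a log2 change of -1 or below, as did 2.5% of all tested genes.

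Fas lies on chromosome 19 (34290666 to 34327772 in mm10, plus strand). A small RNA annotated within it, Gm27818, was at 0 in 4 libraries and at most 3.32 in the others. Among 11853 other genes with a mean of at least 100, those whose library profiles lay nearest to that of Fas were Plaur, Aff3, Rnf17, Nr5a2 and Slco5a1. Nearness was the root mean square difference of centred log2 values over the 6 libraries, 0.22 to 0.24 for these genes and 0.66 for the median gene. These genes were picked for nearness, so small distances and lower means under the Shox2-/- label follow from the choice. Plaur encodes the urokinase receptor, Aff3 a nuclear transcriptional regulator, Rnf17 a protein of germ cells, Nr5a2 an orphan nuclear receptor and Slco5a1 a transporter-like protein. Plaur, the nearest, averaged 220 ± 10.3 (SD, n = 3) in libraries labelled WT and 134 ± 31.3 (SD, n = 3) in those labelled Shox2-/-. Nr5a2 averaged 167 ± 43.3 (SD, n = 3) in libraries labelled WT and 62.3 ± 11.4 (SD, n = 3) in those labelled Shox2-/-.

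Markers of several other cell types had lower means under the Shox2-/- label, as Fas did. The summed level of 9 mesenchyme and feeder fibroblast markers was 373245 to 596094 in the libraries labelled WT and 176402 to 278764 in those labelled Shox2-/-. Of these markers 8 had a lower mean under the Shox2-/- label, 6 without overlap (beside 10.8% of all tested genes), and none was at 0 in all libraries. All 7 epithelium markers had a lower mean, 4 without overlap, with overlapping sums of 7268 to 11060 and 4914 to 13882. All 6 endoderm markers had a lower mean, 1 without overlap, with sums of 6929 to 10033 and 573 to 6922 that came close without overlapping. All 4 erythroid markers had a lower mean, 0 without overlap. Alcam, which encodes the sorted protein CD166, was at 6591, 6526 and 5841 in libraries labelled WT and 4176, 5312 and 4304 in those labelled Shox2-/-. Their part in the Fas result was not tested. In bulk samples fewer cells of a type and less RNA per cell cannot be told apart.

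**Figure D1:**
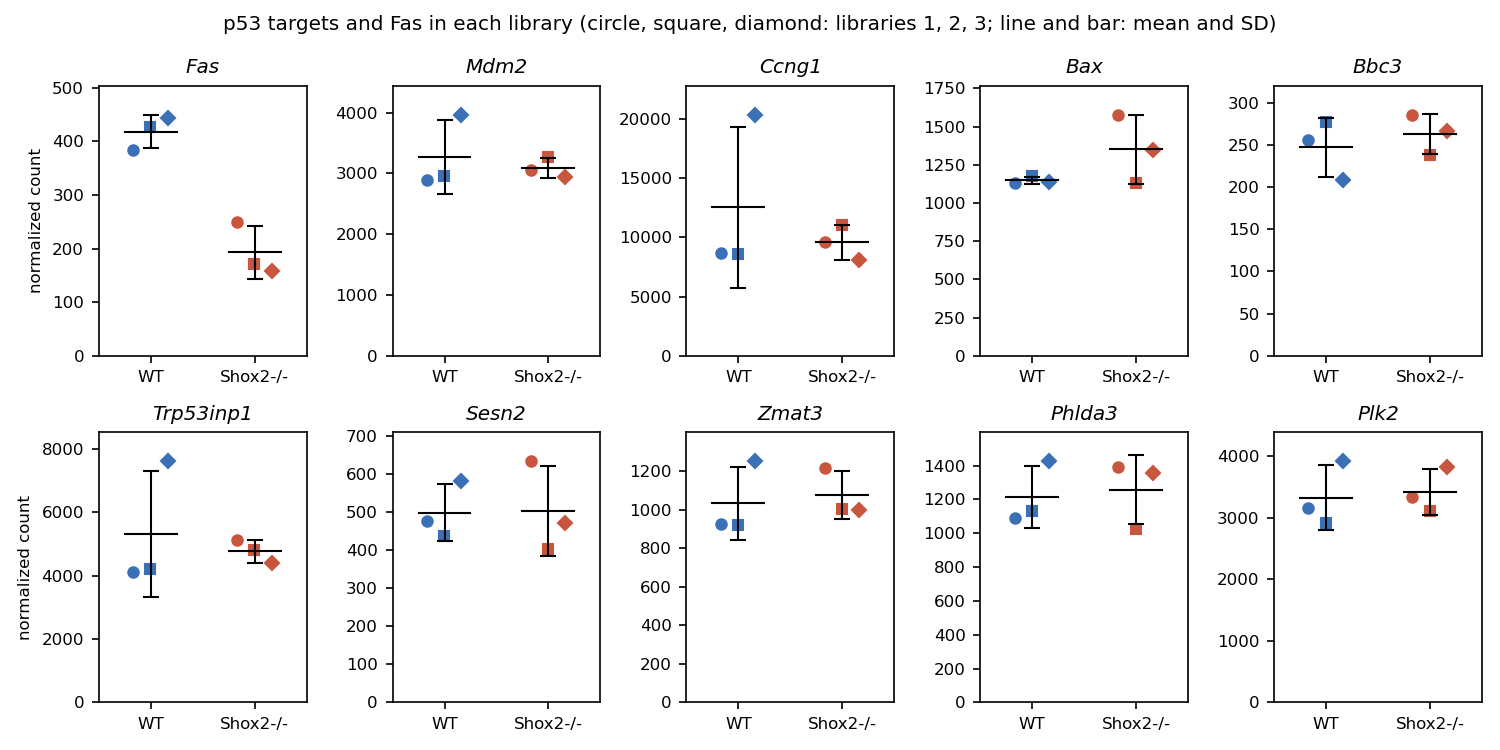
Normalized counts of the 10 genes in each library (vertical axis, from 0), by genotype label; circles, squares and diamonds are libraries 1, 2 and 3, and the line and bar give the mean and SD of 3 libraries. Fas lies at 383 to 444 under the WT label and 159 to 249 under the Shox2-/- label, the other 9 genes overlap, and library 3 labelled WT stands above its group in Ccng1 and Trp53inp1.

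The feedback regulators Mdm2 and Ccng1 did not separate the labels. Mdm2, the ubiquitin ligase that marks p53 for degradation, was at 2888, 2960 and 3963 in libraries 1, 2 and 3 labelled WT and at 3054, 3277 and 2942 in those labelled Shox2-/-. Its means of 3270.4 ± 601 (SD, n = 3) and 3091 ± 170 (SD, n = 3) differed by less than the spread of the libraries labelled WT. The log2 change was -0.07 (SE 0.14, 95% interval -0.40 to 0.26; limma adjusted p = 0.853).

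Ccng1 encodes cyclin G1, which directs a phosphatase to Mdm2. It stood at 8649, 8591 and 20316 in libraries 1, 2 and 3 labelled WT and at 9625, 11029 and 8068 in those labelled Shox2-/-. Library 3 labelled WT held 2.36 times the mean of libraries 1 and 2, while all other libraries lay between 8068 and 11029. The log2 change was -0.27 (SE 0.33, 95% interval -1.05 to 0.50; limma adjusted p = 0.733), and without that library it turned to 0.14 (SE 0.14).

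The mitochondrial death genes gave small differences. Bax, which encodes a pore-forming protein of the outer mitochondrial membrane, was at 1129, 1176 and 1140 in libraries labelled WT and at 1576, 1129 and 1346 in those labelled Shox2-/-. The groups met at their lowest values, since library 2 labelled Shox2-/- equalled library 1 labelled WT to within 1 unit. The log2 change was 0.22 (SE 0.14, 95% interval -0.10 to 0.54; limma adjusted p = 0.486).

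Bbc3 encodes PUMA, a BH3-only protein that frees or activates Bax. It was at 256, 277 and 209 in libraries labelled WT and at 285, 238 and 266 in those labelled Shox2-/-, with library 3 labelled WT the lowest of the 6. Its log2 change was 0.10 (SE 0.17, 95% interval -0.30 to 0.49; limma adjusted p = 0.825). Bax and Bbc3 were thus 2 of the 3 genes, with Sesn2, that were highest in library 1 labelled Shox2-/-.

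Trp53inp1 and Sesn2 belong to the stress and metabolic arm. Trp53inp1, a nuclear protein linked to p53 phosphorylation and autophagy, was at 4110, 4201 and 7601 in libraries 1, 2 and 3 labelled WT and at 5111, 4802 and 4397 in those labelled Shox2-/-. As with Ccng1, library 3 labelled WT stood apart, at 1.83 times the mean of libraries 1 and 2. The log2 change was -0.09 (SE 0.23, 95% interval -0.64 to 0.46) with all libraries and 0.20 (SE 0.09) without that one, and neither passed (limma adjusted p = 0.878 and 0.356).

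Sesn2, a leucine sensor that restrains mTORC1, was at 476, 438 and 583 in libraries labelled WT and at 633, 404 and 470 in those labelled Shox2-/-. The range under the Shox2-/- label enclosed that under the WT label, and the log2 change was 0.00 to 2 decimals (-0.0048, SE 0.20; limma adjusted p = 0.993). The noncoding gene Gm12981 overlaps 6089 bases of Sesn2 on the same strand and reached 5.19 to 23.5 normalized counts, so the assignment of a few reads between them is uncertain.

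Zmat3, Phlda3 and Plk2 complete the set. Zmat3, an RNA-binding zinc finger protein, was at 924, 922 and 1250 in libraries labelled WT and at 1218, 1005 and 998 in those labelled Shox2-/-. Phlda3, a repressor of AKT signalling at the membrane, was at 1087, 1131 and 1424 and at 1393, 1023 and 1355. Plk2, a polo-like kinase of centriole duplication and stress checkpoints, was at 3158, 2913 and 3915 and at 3332, 3106 and 3831. In all 3 genes library 3 labelled WT was the highest of the 6 and the groups overlapped. The log2 changes were 0.07, 0.05 and 0.05, with SE 0.16, 0.16 and 0.14. Their 95% intervals together ran from -0.34 to 0.44, so a change of the size seen for Fas lay outside each of them.

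**Figure D2:**
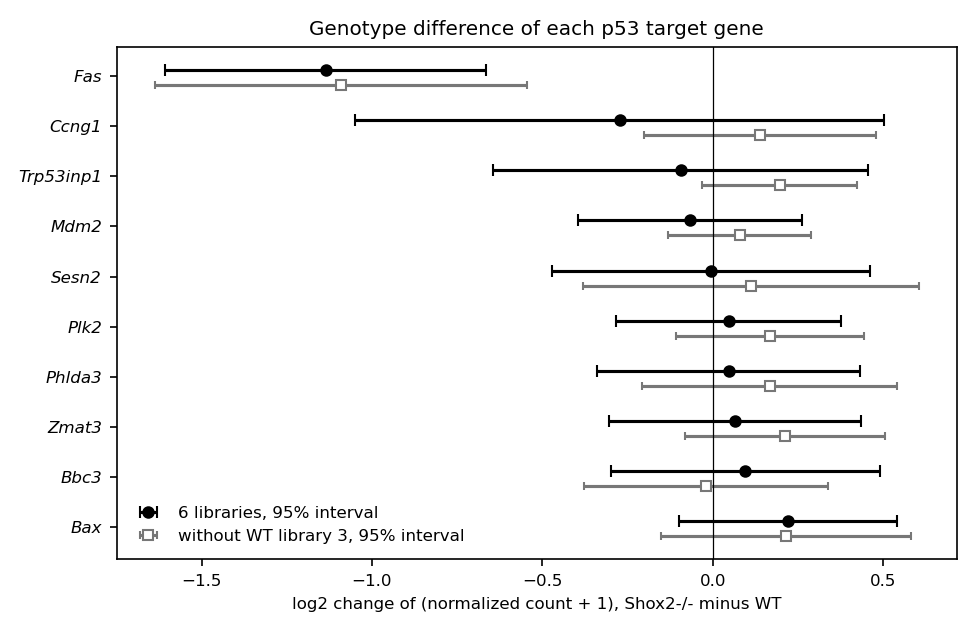
Log2 change of each gene, Shox2-/- minus WT label, on the log2(normalized count + 1) scale; filled points use all 6 libraries, open squares leave out library 3 labelled WT, and bars are 95% intervals from limma. The interval of Fas, -1.61 to -0.67, lies below 0 while those of the other 9 genes include 0 with all libraries.

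Over the 10 genes the median log2 change was 0.02, beside 0.01 over all genes tested, with 5 higher and 5 lower. The median size of the change regardless of sign was 0.08, beside 0.21 over all genes. Without library 3 labelled WT, 8 of the 9 genes other than Fas had a higher mean log2 value under the Shox2-/- label, Bbc3 being the exception, with a range of -0.02 to 0.22. In that setting 51.2% of all genes were higher. Library 3 labelled WT lay above the mean of libraries 1 and 2 in 7 of these 9 genes. Leaving it out therefore raises their changes by construction. The 2 libraries left under the WT label were close, with a median absolute log2 difference of 0.06 over the 9 genes. Mdm2, Ccng1, Trp53inp1 and Sesn2 changed direction from lower to higher and Bbc3 from higher to lower, and none of the 9 passed in limma. With library 3 labelled WT left out, Trp53inp1 and Zmat3 no longer overlapped between the labels, being higher under Shox2-/-, as were 22.9% of all tested genes.

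Library 3 labelled WT was the highest of the 6 in 7 of the 10 genes, and in 25.5% of all tested genes. The difference between that library and the mean of libraries 1 and 2 labelled WT had a median of 0.36 on the log2 scale over the 10 genes, against 0.01 over all genes. Ccng1, at 1.24, and Trp53inp1, at 0.87, lay at the 96.4th and 93.6th percentile of tested genes, and Fas, at 0.13, at the 60.9th. Bax and Bbc3 were not raised there, at -0.02 and -0.35. These are values of 1 library and carry no test. Of 38 tested p53 targets in 3 further lists, 21 were highest in library 3 labelled WT, among them Cdkn1a, which encodes the cell cycle inhibitor p21, at 695 against 357 and 360.

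**Figure D3:**
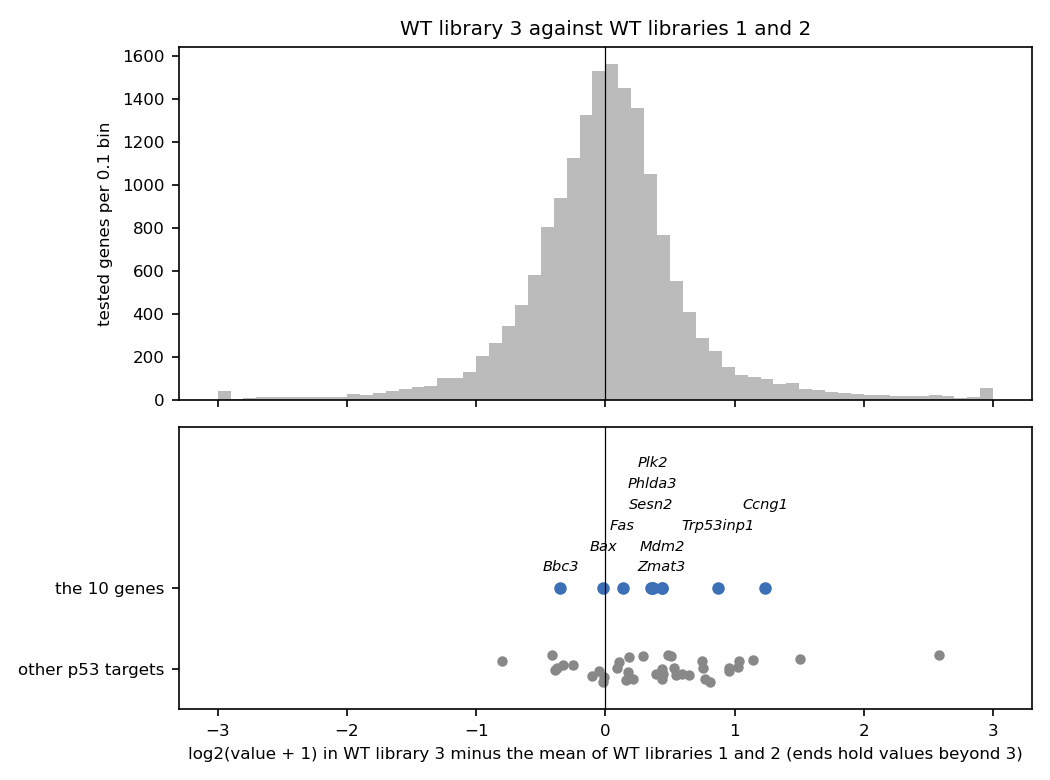
Difference in log2(value + 1) between library 3 labelled WT and the mean of libraries 1 and 2 labelled WT; the upper panel counts all tested genes in bins of 0.1, and the lower panel shows the 10 genes and 38 further p53 targets, each point 1 gene with vertical scatter added for legibility. Ccng1 at 1.24 and Trp53inp1 at 0.87 lie in the right flank, and Bbc3 at -0.35 in the left.

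The same library differed in its cell type markers. Its summed cardiomyocyte markers came to 11156, against 28169 and 29718 in libraries 2 and 1 labelled WT, and none of the 10 was highest there. Mesenchyme markers summed to 596094 against 373245 and 378046, with 7 of 9 highest there. Leukocyte markers summed to 3195 against 562 and 586, with 3 of 5 highest, and erythroid markers to 81.7 against 10691 and 10865. No marker of these lists was at 0 in all libraries. Across all 6 libraries leukocyte markers ranged from 145 to 3195 and did not separate the labels. The part of these markers in the levels of the p53 targets was not tested.

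Levels between genes were compared per kilobase of merged exons. Ccng1 was the most abundant, at 2297 to 5785 normalized counts per kilobase over the 6 libraries, above every library of any other of the 10 genes. Trp53inp1, Phlda3, Plk2, Bax and Mdm2 followed between 568 and 1174 per kilobase, and their ranges overlapped. Fas, Sesn2, Bbc3 and Zmat3 formed the lowest tier, between 76.9 and 215 per kilobase. Under the WT label Fas led this tier, with a mean of 203 ± 15.1 (SD, n = 3) per kilobase beside 144 ± 21.5 (SD, n = 3) for Sesn2. Under the Shox2-/- label it averaged 93.6 ± 23.8 (SD, n = 3), a level shared with Zmat3 at 93.9 ± 10.9 (SD, n = 3) and below Sesn2 at 145 ± 33.9 (SD, n = 3).

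Trp53 itself did not differ between labels. It was at 437, 451 and 359 in libraries labelled WT and at 654, 290 and 334 in those labelled Shox2-/-, a log2 change of -0.05 (SE 0.30; limma adjusted p = 0.947) whose sign depended on the libraries used. Its highest value was in library 1 labelled Shox2-/-, and library 3 labelled WT, where most targets peaked, had the lowest of its group. The related genes Trp63 and Trp73 stayed at or below 12.4 and did not reach the minimum for testing. Trp73 was at 11.6, 12.4 and 6.28 in libraries labelled WT and at 1.73, 1.79 and 5.18 in those labelled Shox2-/-, without overlap but on 1 to 19 reads. With no filter on low values the log2 changes were -0.50 for Trp63 and -1.57 for Trp73 (limma adjusted p = 0.775 and 0.356). Of 10 tested p53 family members and cofactors 9 were higher and 1 lower, and 0 passed in limma, adjusted or at an unadjusted p under 0.05. Trp53bp2, Ep300 and Ppp1r13b, which encode p53-binding cofactors, had log2 changes of 0.24, 0.19 and 0.26. Without library 3 labelled WT, which was the lowest of the 6 in 8 of these 10 genes, the values were 0.08, -0.04 and -0.13.

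Among 5 kinase genes of the DNA damage response 3 were higher, 2 lower and 0 passed in limma. Chek1 alone had an unadjusted p under 0.05, and Chek1 and Chek2 were higher in every library labelled Shox2-/- than in any labelled WT. Over all tested genes 6.92% were higher at that p and 12.8% were higher without overlap. Chek1, the checkpoint kinase of replication stress, averaged 1368 ± 65.5 (SD, n = 3) under the WT label and 1870.3 ± 280 (SD, n = 3) under the Shox2-/- label. Its log2 change was 0.44 (SE 0.13; limma adjusted p = 0.260). Chek2 had a log2 change of 0.13 (SE 0.11) and Atr, the kinase that activates Chek1, by 0.09 (SE 0.09). Summed proliferation markers were 44131 to 47850 under the WT label and 52136 to 57176 under the Shox2-/- label, and their part in the Chek1 value was not tested.

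Of 11 genes that set the p53 protein's stability or activity, 6 were higher, 5 lower and 0 passed in limma. At an unadjusted p under 0.05, 2 of the 11 were higher and 1 lower, beside 6.92% and 7.23% of all genes. Without overlap 2 were higher and 2 lower, beside 12.8% and 10.8% of all genes. Cdkn2a, whose ARF product blocks Mdm2 and whose other product p16 inhibits cyclin-dependent kinases, was at 121, 121 and 283 in libraries labelled WT and at 15.6, 34.9 and 34.8 in those labelled Shox2-/-. The groups lay far apart, a 6.15-fold lower mean and a log2 change of -2.54 (SE 0.45, limma adjusted p = 0.182). Cdkn2a passed in voom with sample quality weights (adjusted p = 0.0378). Without library 3 labelled WT the Cdkn2a value was -2.14. The count in library 1 labelled Shox2-/- rested on 9 reads. The deubiquitinase gene Usp7 (0.26, SE 0.09) and the methyltransferase gene Setd7 (0.32, SE 0.12) were higher without overlap. Mdm4, the partner of Mdm2, was lower without overlap (-0.21, SE 0.10; adjusted p = 0.391).

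The 3 further lists of p53 targets held 38 tested genes, of which 15 were higher, 23 lower and 0 passed in limma. At an unadjusted p under 0.05, 3 were lower and 0 higher, beside 7.23% and 6.92% of all genes. In 5 the groups did not overlap with Shox2-/- lower, and in 0 with Shox2-/- higher, beside 10.8% and 12.8% of all genes. The median log2 change of the 38 was -0.10. Without library 3 labelled WT the balance turned, with 21 of the 38 (55.3%) higher and a median of 0.04. Over all genes these were 51.2% and 0.01. That library lay above the mean of libraries 1 and 2 labelled WT in 28 of the 38, so leaving it out raises their changes by construction. Among arrest genes, the noncoding RNA Trp53cor1 was at 53.1, 46.3 and 47.9 under the WT label and at 20.8, 26.8 and 32.6 under the Shox2-/- label, a log2 change of -0.87 (SE 0.27; adjusted p = 0.277). Cdkn1a, its neighbour, was at 336, 274 and 318 in the libraries labelled Shox2-/-, with a log2 change of -0.53 (SE 0.27). Without library 3 labelled WT the Cdkn1a value was -0.22 (SE 0.14). Btg2, an antiproliferative factor, had a log2 change of -0.52 (SE 0.25) and by -0.27 without that library.

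Of 11 tested death targets 8 were higher and 3 lower, and of 17 metabolic and repair targets 5 were higher and 12 lower, none passing. Tnfrsf10b, a death receptor for TRAIL and so a relative of Fas, averaged 276 ± 26.9 (SD, n = 3) under the WT label and 216 ± 35.4 (SD, n = 3) under the Shox2-/- label. Its log2 change was -0.36 (SE 0.18; limma adjusted p = 0.395). Perp, a desmosomal p53 target, had a log2 change of -0.33 (SE 0.24), or -0.08 without library 3 labelled WT, and Trp53i11 one of 0.14 (SE 0.13). Cpt1c, a neuronal carnitine palmitoyltransferase relative, had a log2 change of -0.35 (SE 0.13) and Dcxr, a sugar reductase, by -0.48 (SE 0.18), both without overlap. Ephx1, an epoxide hydrolase, was at 129, 118 and 744 under the WT label and at 76.1, 52.7 and 119 under the Shox2-/- label. Its log2 change of -1.51 (SE 0.70) became -0.65 without library 3 labelled WT.

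**Figure D4:**
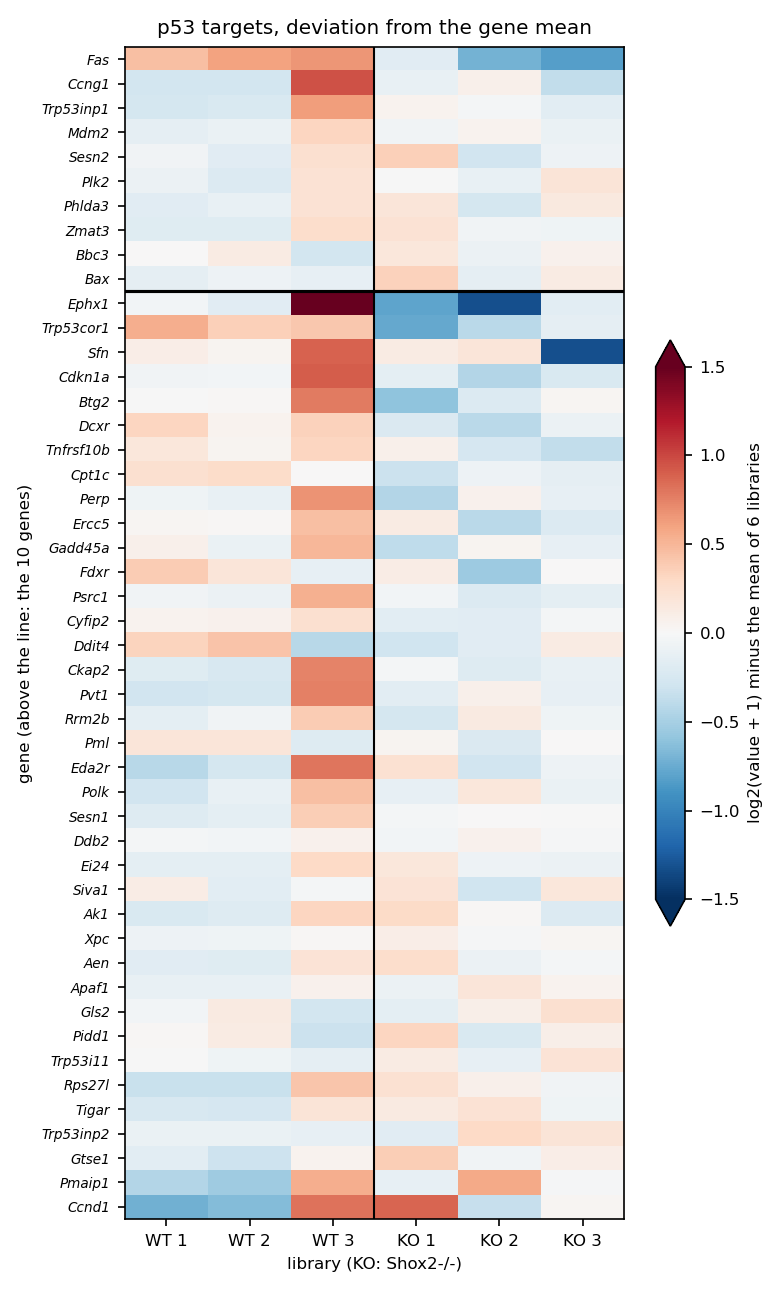
Heat map of the 10 genes (above the line) and 38 further p53 targets (below it) in the 6 libraries; colour gives log2(value + 1) minus the gene's mean over the 6 libraries, capped at 1.5 in both directions, and genes are ordered by log2 change within each block. Fas is the one row above the line that divides at the genotype boundary, and the column of library 3 labelled WT holds the highest value of 7 of the 10 and 21 of the 38 genes.

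The signalling partners of Fas varied in direction. Of 12 tested genes of the death receptor pathway 7 were higher, 5 lower and 0 passed in limma, with 1, Daxx, higher at an unadjusted p under 0.05, beside 6.92% of all genes. Fasl, the ligand gene, stayed at or below 4.98 in every library, under the minimum for testing, and with no filter on low values its log2 change was -0.02 (limma adjusted p = 0.991). Casp8, the initiator protease, was at 440, 424 and 780 in libraries labelled WT and at 285, 411 and 399 in those labelled Shox2-/-, a log2 change of -0.54 (SE 0.27; adjusted p = 0.401) that became -0.26 without library 3 labelled WT. Tradd, an adaptor of TNF receptors, had a log2 change of -0.32 (SE 0.15) and Daxx, a Fas-binding nuclear chaperone, by 0.30 (SE 0.12), both without overlap. In 3 of the 12 genes, Casp8 included, the groups did not overlap, beside 23.6% of all genes.

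Among 16 tested genes of the BCL2 family and the mitochondrial arm 10 were higher, 6 lower and 0 passed in limma, adjusted or at an unadjusted p under 0.05. Without overlap 1 was higher and 2 lower, beside 12.8% and 10.8% of all genes. The 3 members with the lowest p were all higher. Bok, a Bax relative, had a log2 change of 0.57 (SE 0.26), Bcl2, the antiapoptotic founder of the family, by 0.52 (SE 0.25), and Cycs, which encodes cytochrome c, by 0.42 (SE 0.20). Adjusted p was 0.380 to 0.382 for the 3, and the Bcl2 value was 0.32 without library 3 labelled WT. Of all pathway lists described, voom with sample quality weights called 1 of the 11 stability and activity genes, Cdkn2a, and 0 in each of the others, beside 1.78% of all genes.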

How the data were processed

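The deposited files list 1 value per gene and library. The submitters' processing notes name build mm10, DESeq2 1.14.0, HTSeq, BWA and CASAVA 1.8.2 without a role; strand use is not given in the sources used here. The deposited values are normalized read counts, each library scaled by a single factor, as worked out from the values: division by the step of each library gave whole reads for 100.0% of values up to 1000 reads, within 0.1 read. These recovered reads served the voom, total and upper quartile alternatives, the read numbers given here and the library sizes of the simulation. Values were analysed as log2(value + 1) with limma 3.58.1 in R 4.3.3 (1 term for the label, trend, two-sided, Benjamini-Hochberg), on genes that reached 10 in 3 or more libraries. A fold change on this scale understates that of low genes. A gene passed at an adjusted p under 0.05. Count-model tests of the recovered reads were not run; voom was run on the same reads.

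Gene positions and exon lengths came from GENCODE M21 of GRCm38, the assembly of mm10, and promoter windows from RefSeq. Tested on simulated data, 5 simulations of 17034 genes with 200 changed, the limma fit found 94.2% of the genes changed 2-fold and made 7.8 false calls in an average run. The simulated spread was the same in every library and gene and was not fitted to these data, and changed genes had means of at least 50. In the real libraries labelled WT the SD on the log2 scale was 0.03 for Bax and 0.71 for Ccng1. The share found in simulation is therefore not the power of the real comparison, in which 0 genes passed. Named were the 10 genes, Shox2, Alcam, Trp53, Trp63, Trp73, Mdm4, Cdkn1a and Fasl, up to 3 genes per list (those of lowest p) and the 5 nearest to Fas. Members and lists were chosen with earlier results of these data known. Replicate numbers follow the order of deposit and pair no samples.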

Additional observations from a re-analysis of the deposited data

How the results depend on the processing

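With limma on all libraries 0 of 17034 genes passed. The count was 2 without the filter on low values, 303 in voom with sample quality weights and 0 in voom without them, an alternative added after the data were seen. It was 0 to 51 when 1 library was left out (51 without library 2 labelled Shox2-/-), and 0 in the others that were run. At an unadjusted p under 0.05, 1179 genes were higher and 1232 lower, and 878 and 1470 with scaling by library totals. Of the 10 p53 targets 0 passed, except for 1, Fas, in voom with sample quality weights. The planned edgeR and DESeq2 alternatives were not run, so their calls are not known.

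Of 687 log2 changes of 43 named genes under alternatives, 649 kept their direction and their side of the threshold, 7 kept their direction and passed, and 31 reversed. No reversed value passed. In voom with sample quality weights the reversed values were 0.0537 for Mdm2, 0.0729 for Ccng1, -0.0389 for Bbc3, 0.15 for Trp53inp1, 0.0778 for Sesn2, -0.0322 for Ep300 and -0.0802 for Ppp1r13b. With a block for the libraries whose titles carry Diff9, Zmat3 was at -0.0314. With libraries 1 and 2 labelled WT as 1 sample, Zmat3 was at -0.0068, Phlda3 at -0.0136 and Plk2 at -0.0158.

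With 1 library left out, the ranges of the genes that reversed were -0.15 to 0.0786 for Mdm2, -0.48 to 0.14 for Ccng1, -0.0205 to 0.18 for Bbc3, -0.25 to 0.20 for Trp53inp1, -0.18 to 0.14 for Sesn2 and -0.0280 to 0.21 for Zmat3. They were -0.0341 to 0.19 for Phlda3, -0.0444 to 0.17 for Plk2, -0.41 to 0.18 for Trp53, -0.0397 to 0.30 for Ep300 and -0.13 to 0.47 for Ppp1r13b. For Fas the range was -1.33 to -1.01. Apart from the left-out library itself, the cause of these differences was not tested. The 2 shallowest libraries, number 1 of each label, held 13504683 and 13782017 reads, so low genes are least precise there.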
